A study of Mus musculus with 6 samples.

Results

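The transfer RNAs (tRNAs) for valine, isoleucine, threonine, proline and arginine were followed through an eCLIP experiment on mouse Gtsf1, also named Asterix, a small zinc-finger protein known for its place in piRNA-guided silencing. In eCLIP, ultraviolet light joins RNA to protein in living cells, the protein is purified, and the RNA that came with it is sequenced beside a part of the lysate kept as input. The members were chosen by name: every annotated tRNA feature named for 1 of these 5 amino acids, which gave 153 of 869 tRNA features and of 1753368 annotated features with any read. There were 31 features for valine (Val), 29 for isoleucine (Ile), 35 for threonine (Thr), 26 for proline (Pro) and 32 for arginine (Arg). Of the 153, 99 carried an anticodon in their name and 54 did not.

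A tRNA reads a codon of the messenger RNA with its anticodon, and tRNAs with different anticodons for the same amino acid are called isoacceptors. Where the gene encodes adenosine at the wobble position, the first base of the anticodon, the enzyme formed by Adat2 and Adat3 converts it to inosine, which can pair with several bases. The 5 amino acids share this arrangement: each has a wobble A isoacceptor (Val-AAC, Ile-AAT, Thr-AGT, Pro-AGG and Arg-ACG, anticodons written as DNA) beside isoacceptors with another first base. Many copies of each tRNA gene lie in clusters across the genome, and identical copies give the same RNA.

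All libraries came from P19 cells, a mouse embryonal carcinoma line, transiently transfected with Gtsf1 that carried a C-terminal TEV-Strep tag and was expressed from a pEF plasmid by its EF-1alpha promoter. None of the 4 groups lacked the tagged protein, so RNA held by the beads alone was measured in none of them. Cells irradiated at 254 nm gave 2 pull-downs and 2 inputs, and cells without irradiation gave 1 pull-down and 1 input, so the non-crosslinked values have no replicate. The labels number the crosslinked libraries 1 and 2 but do not say that they came from separate cultures, so p-values measure the spread between these libraries, which may be technical. Below, input 1, input 2, pull-down 1 and pull-down 2 are the crosslinked libraries.

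Libraries held 13168593 to 18418166 reads, of which 6.99% to 14.4% lay outside the annotation, and 1 read was worth 0.0543 to 0.0759 RPM (the deposited unit, which scales each library to the same total). The 153 features together had 605 reads in input 1, 345 in input 2, 4277 in pull-down 1, 8435 in pull-down 2, 406 in the non-crosslinked input and 1203 in the non-crosslinked pull-down. The inputs are therefore the thin side of the ratios with crosslinking, while without crosslinking the pull-down can be the thinner, as for Arg-ACG and Thr-AGT. The summed level of 10 pluripotency markers was 58.9 to 103 RPM, with reads of 8 of them in all 6 libraries, Nanog at 0 in the non-crosslinked pull-down and Dppa4 at 0 in all 4 crosslinked libraries. Markers of primitive endoderm summed to 0.890 to 5.04 RPM and were higher in both crosslinked pull-downs (4.11 and 5.04) than in their inputs (1.55 and 2.20). In the pull-downs most of that sum was Gata6 (0.310 and 0.615 RPM in the inputs, 3.13 and 3.00 in the pull-downs), while Dab2, most of the sum in the inputs, ran the other way (1.12 and 1.52 against 0.186 and 0.937) and Foxa2 was at 0 in both pull-downs. Their part in the tRNA results was not tested. Neural markers summed to 3.53 to 8.15 RPM, mesodermal or fibroblast markers to 1.16 to 2.3 and germ cell markers to 0.0177 to 0.551.

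The authors' counting divided a read among the features it matched: of the single features with any read, at most 19.5% in any library had a whole count (within 0.001), while the sum over all tRNA features was whole in all 6. Values of single copies therefore show how reads were shared out as well as where they came from, and sums per isoacceptor are the firmer level. Reads were also divided across anticodons. The sums of the 3 Pro isoacceptors, Val-AAC, Val-CAC and Arg-TCG were whole in 0 of 6 libraries, against 5 of 6 for Val-TAC and Arg-ACG and 4 of 6 for Ile-AAT and Ile-TAT.

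For position, RefSeq (GRCm38.p6, the same primary assembly as mm10) lists 95 tRNA genes of these isoacceptors, 34 of them on chromosome 13. Its gene numbers do not match those of the deposited features, so a single copy could not be placed. The 3 Val-TAC genes lie on chromosome 19, 2 of them between 12011931 and 12012338, and on chromosome X at 160766110 to 160766182. The 3 Arg-CCG genes lie on chromosome 11 (107012866 to 107012938), chromosome 13 (21215458 to 21215530) and chromosome 17 (23550263 to 23550335). Most of the genes span 72 to 74 bases, while the Arg-TCT genes span 74 to 87, some genes that RefSeq names Ile-AAT up to 96, and the only gene RefSeq names for Ile-TAT spans 94. RefSeq names 15 genes for Ile-AAT and 1 for Ile-TAT, where the deposited features number 11 and 5, so the 2 namings disagree for Ile.

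Summed over all copies, the tRNAs of every one of the 5 amino acids were higher in the crosslinked pull-downs than in the inputs. Ile rose the most, to 31 times the mean of the inputs, followed by Thr (20.0 times), Pro (15.4), Val (12.5) and Arg (10.5). Only Pro was nearly as high in the pull-down from cells that had not been crosslinked. All 5 sums passed the test (edgeR's quasi-likelihood test, Benjamini-Hochberg adjusted p under 0.05 over the whole table of features, here and below unless another test is named), against 6.01% of all features tested in this table that were called higher. None was lower (3.61% of all features), and all 5 had an unadjusted p under 0.05 (22.7%).

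Arg, the largest sum in RPM in the 4 crosslinked libraries, stood at 14.9 RPM in input 1, 7.38 in input 2, 75.7 in pull-down 1, 157 in pull-down 2, 9.89 in the non-crosslinked input and 19.4 in the non-crosslinked pull-down. Ile stood at 3.72 and 2.52 RPM in the inputs, 58.8 and 134 in the pull-downs, and 2.97 and 10.6 without crosslinking (input first). Val stood at 8.18 and 4.18 RPM in the inputs, 48.1 and 106 in the pull-downs, and 11.2 and 16.0 without crosslinking. In each of these 3, both pull-downs lay far above all 3 inputs, pull-down 2 was the highest library, and the non-crosslinked pull-down lay between the inputs and pull-down 1.

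Thr gave 4.01 and 1.48 RPM in the inputs, 34.7 and 74.9 in the pull-downs, and 1.98 and 2.56 without crosslinking. Pro gave 3.84 and 3.20 RPM in the inputs, 48.1 and 60.2 in the pull-downs, and 2.69 and 42.8 without crosslinking. Thr without crosslinking thus lay within the range of the inputs, whereas Pro without crosslinking lay close below pull-down 1.

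The fitted log2 ratio of pull-down to input was 5.05 (SE 0.48, adjusted p = 0.000947) for Ile, 4.43 (SE 0.56, adjusted p = 0.00344) for Thr and 4.03 (SE 0.22, adjusted p = 0.000239) for Pro. It was 3.74 (SE 0.49, adjusted p = 0.00404) for Val and 3.49 (SE 0.47, adjusted p = 0.00495) for Arg. The order of the 5 ratios was not tested, and neighbours in it differ by less than the sum of their errors. Left out one at a time, the crosslinked libraries moved these ratios to between 2.85 (Arg without pull-down 2) and 5.54 (Ile without pull-down 1), and Thr to 5.30 without input 1; all 5 kept their call each time. The ratios are set against all annotated reads; with trimmed-mean (TMM) scaling the median of all features moved from -0.21 to 0.00 and the 5 calls stood. With no minimum on the level, over many more features, edgeR called 0 of the 5, though all 5 had an unadjusted p under 0.05.

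**Figure D1:**
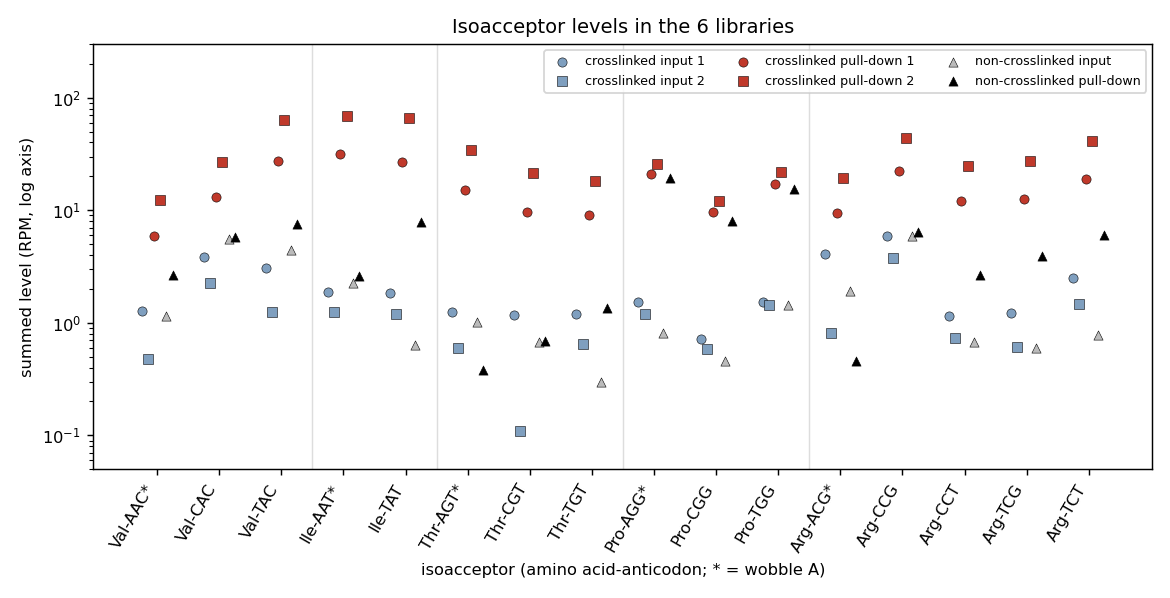
Level of each isoacceptor sum in RPM (log axis) in the 6 libraries, 1 point per library, with crosslinked and non-crosslinked inputs and pull-downs drawn apart. For the Pro isoacceptors the non-crosslinked pull-down sits beside the crosslinked ones (Pro-AGG 19.5 against 21 and 25.9), while for Thr-AGT and Arg-ACG it sits below every input.

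At the level of isoacceptors, 17 sums reached a mean of 1 RPM over the 4 crosslinked libraries and were tested: 16 with an anticodon and the Val features without one. All 17 were higher in the pull-downs, against 6.07% of all features in this table, none was lower (3.59%), and all 17 had an unadjusted p under 0.05 (22.7%). Of the 17, 8 had an input mean under 1 RPM and passed the minimum only through the pull-downs, which largely fixed their direction. Compared per length of the RefSeq genes, the levels in the pull-downs ran from 676 RPM per kilobase for Ile-AAT, 624 for Val-TAC, 491 for Ile-TAT and 457 for Arg-CCG down to 124 for Val-AAC. These lengths are gene spans with any intron included. Ile-TAT was divided by the 94 bases of 1 gene, and its place in this order depends on that span.

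The isoleucine tRNAs were led by Ile-AAT, the wobble A isoacceptor, and Ile-TAT, which reads the ATA codon and is one of the few tRNAs whose genes carry an intron. Ile-AAT stood at 1.89 and 1.25 RPM in the inputs, 31.7 and 68.3 in the pull-downs, 2.26 in the non-crosslinked input and 2.58 in the non-crosslinked pull-down. Ile-TAT stood at 1.83 and 1.19 RPM in the inputs, 26.7 and 65.6 in the pull-downs, 0.636 in the non-crosslinked input and 7.90 in the non-crosslinked pull-down. With crosslinking the levels of both were near each other in every crosslinked library, while without it the pull-down was 1.14 times its input for Ile-AAT and 12.4 times for Ile-TAT.

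Their log2 ratios with crosslinking were 5.09 (SE 0.47, adjusted p = 0.000796) for Ile-AAT and 5.02 (SE 0.52, adjusted p = 0.00149) for Ile-TAT. The non-crosslinked figures rest on 32 and 34 reads for Ile-AAT and on 9 and 104 for Ile-TAT, input first. Without 1 crosslinked library the log2 ratio ran from 4.41 to 5.55 for Ile-AAT and from 4.22 to 5.54 for Ile-TAT, lowest without pull-down 2 and highest without pull-down 1. A lone Ile-GAT feature, tRNA-Ile-GAT-1-1, was under the minimum for the test, with no read in either input and 0.248 and 0.0632 RPM in the pull-downs.

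Among single Ile genes, tRNA-Ile-TAT-2-3 had the highest RPM of all 153 features in the pull-downs. It stood at 0.472 and 0.344 RPM in the inputs, 13.1 and 28.4 in the pull-downs, and 0.236 and 3.44 without crosslinking (log2 ratio 5.80, SE 0.53, adjusted p = 0.000964). Its neighbour in name tRNA-Ile-TAT-2-2 had the second-largest log2 ratio of the members, 6.15 (SE 0.83, adjusted p = 0.00538), on inputs of 1.75 and 1.33 reads, few enough that the ratio is set by single reads. Of the 8 copies named Ile-AAT-1, which share that isodecoder number, tRNA-Ile-AAT-1-6 had 6.11 and 14.5 RPM in the pull-downs where the median copy had 3.10 and 6.57.

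This copy was not raised in the inputs, where it equalled the median copy at 0.202 and 0.122 RPM. In both inputs the highest copy was tRNA-Ile-AAT-1-7, named after its values were seen (0.374 and 0.259 RPM), which also reached 3.57 and 7.96 in the pull-downs.

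**Figure D2:**
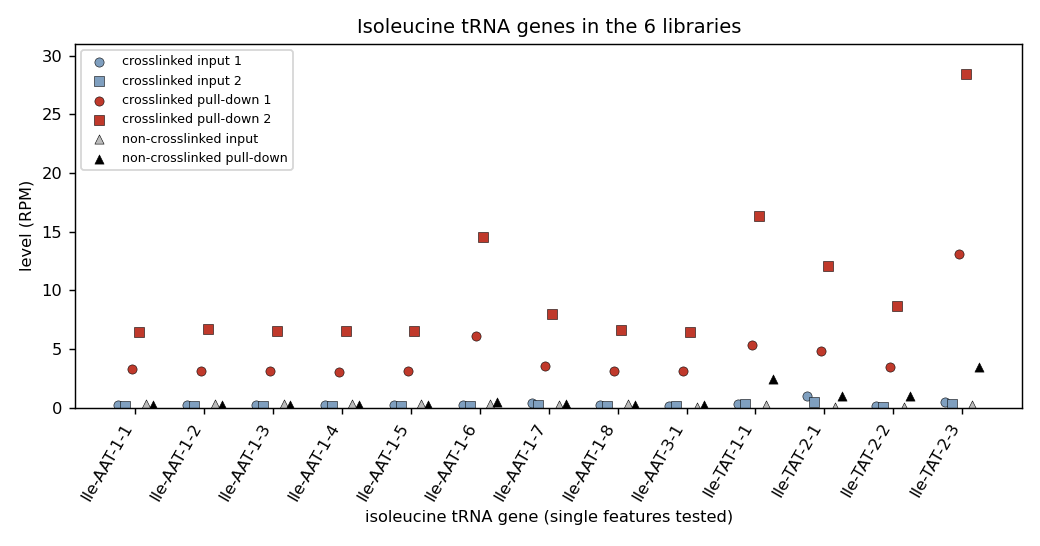
Level of every tested isoleucine tRNA gene in RPM (linear axis) in the 6 libraries. tRNA-Ile-TAT-2-3 is highest in both crosslinked pull-downs (13.1 and 28.4), and tRNA-Ile-AAT-1-6 stands above the other copies of its name in the pull-downs but not in the inputs.

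The threonine isoacceptors all rose with crosslinking. Thr-AGT, the wobble A isoacceptor, stood at 1.24 and 0.597 RPM in the inputs, 15.1 and 34.6 in the pull-downs, 1.01 in the non-crosslinked input and 0.380 in the non-crosslinked pull-down. Thr-CGT stood at 1.17 and 0.109 RPM in the inputs, 9.63 and 21.4 in the pull-downs, and 0.671 and 0.683 without crosslinking. Thr-TGT stood at 1.19 and 0.652 RPM in the inputs, 9.09 and 18.3 in the pull-downs, and 0.300 and 1.37 without crosslinking.

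Both pull-downs lay above every other library for all 3. The non-crosslinked pull-down was below its own input for Thr-AGT (5 against 14.25 reads), at its level for Thr-CGT (9 against 9.50 reads) and above it for Thr-TGT (18 against 4.25 reads). The log2 ratios with crosslinking were 4.84 (SE 0.53, adjusted p = 0.0019) for Thr-AGT, 4.74 (SE 0.69, adjusted p = 0.0074) for Thr-CGT and 3.97 (SE 0.45, adjusted p = 0.00221) for Thr-TGT. Without 1 crosslinked library the ratio ran from 4.11 to 5.44 for Thr-AGT and from 3.37 to 4.45 for Thr-TGT, lowest without pull-down 2 and highest without input 1. Thr-CGT had 2 reads in input 2, and its log2 ratio was 7.14 without input 1 and 3.86 without input 2, called in both.

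The genes with the most reads of each were tRNA-Thr-AGT-3-1 (2.50 and 6.63 RPM in the pull-downs, 0.204 and 0.0760 in the inputs), tRNA-Thr-CGT-1-1 (4.22 and 9.07 against 0.515 and 0.0543) and tRNA-Thr-TGT-3-1 (2.83 and 5.35 against 0.391 and 0.226). Their log2 ratios were 5.05 (SE 0.83), 4.63 (SE 0.67) and 3.80 (SE 0.49), with adjusted p of 0.0128, 0.00778 and 0.00463. Without input 1 the ratio was 6.28 for tRNA-Thr-AGT-3-1 and 6.83 for tRNA-Thr-CGT-1-1, and without input 2 it was 4.37 and 3.78, called each time. All 11 Thr genes tested were called higher, against 6.44% of all features tested. Each had an input mean under 1 RPM and passed the minimum only through the pull-downs, which largely fixed its direction.

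Among the valine isoacceptors the rise was steepest for Val-TAC. It stood at 3.09 and 1.25 RPM in the inputs, 27.2 and 63.9 in the pull-downs, 4.45 in the non-crosslinked input and 7.52 in the non-crosslinked pull-down. Val-CAC stood at 3.81 and 2.24 RPM in the inputs, 13.2 and 26.8 in the pull-downs, and 5.60 and 5.77 without crosslinking. Val-AAC, the wobble A isoacceptor, stood at 1.26 and 0.477 RPM in the inputs, 5.95 and 12.2 in the pull-downs, and 1.14 and 2.64 without crosslinking.

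Val-CAC was thus the largest Val isoacceptor in all 3 inputs and Val-TAC the largest in all 3 pull-downs. The log2 ratios with crosslinking were 4.49 (SE 0.56, adjusted p = 0.00343) for Val-TAC, 3.47 (SE 0.50, adjusted p = 0.00653) for Val-AAC and 2.82 (SE 0.41, adjusted p = 0.00723) for Val-CAC. They ran from 3.73 to 5.26, from 2.85 to 4.27 and from 2.21 to 3.25 in that order when 1 crosslinked library was left out, lowest without pull-down 2 for all 3 and highest without input 1, or for Val-CAC without pull-down 1. Tested within the amino acid by limma, as the log2 level of an isoacceptor minus that of the rest of its amino acid (pseudocount 1 RPM), Val-TAC gained 1.24 (SE 0.18, adjusted p = 0.00665) in the pull-downs and Val-CAC lost ground by -1.42 (SE 0.21, adjusted p = 0.00665). In this family of 37 isoacceptors over all amino acids, 10.8% were called higher and 45.9% lower. Val-TAC and Val-CAC held 59.0% and 25.9% of the mean Val level in the pull-downs and 35.1% and 48.9% in the inputs. Their 2 calls are therefore largely 1 shift seen from both sides. Both calls held with pseudocounts of 0.1 and 5. Without pull-down 1 the values were 1.35 and -1.52 (adjusted p of 0.0776 and 0.0784) and without pull-down 2 they were 1.13 and -1.31 (0.106 for both), near the full values but no longer called.

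The 3 copies of Val-TAC had almost equal levels in the pull-downs (2 of them named after their values were seen), with tRNA-Val-TAC-1-2 at 9.07 and 21.7 RPM, tRNA-Val-TAC-1-1 at 9.22 and 20.9 and tRNA-Val-TAC-1-3 at 8.95 and 21.3. In the inputs they ran from 0.706 to 1.31 RPM in input 1 and from 0.398 to 0.425 in input 2. The genes with the most reads of the other isoacceptors were tRNA-Val-CAC-2-5 (2.28 and 4.61 RPM in the pull-downs, log2 ratio 2.70, SE 0.46, adjusted p = 0.0156) and tRNA-Val-AAC-5-1 (1.86 and 4.08 RPM, log2 ratio 3.62, SE 0.61, adjusted p = 0.0146). The Val features without an anticodon were led by tRNA-Val-7546, named here after its values were seen, with 0.0143 and 0.109 RPM in the inputs, 1.44 and 2.92 in the pull-downs and no read without crosslinking (log2 ratio 5.19, SE 0.79, adjusted p = 0.00935). Its inputs of 0.25 and 2 reads leave the ratio to single reads, and the sum it leads ran from a log2 ratio of 3.58 without input 1 to 8.43 without input 2.

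The arginine isoacceptors all rose with crosslinking, and single Arg genes held both the largest and the smallest ratio of the members. Arg-CCG stood at 5.88 and 3.76 RPM in the inputs, 22.5 and 44.2 in the pull-downs, and 5.94 and 6.40 without crosslinking. Arg-TCT stood at 2.48 and 1.47 RPM in the inputs, 18.9 and 40.8 in the pull-downs, and 0.777 and 6.0 without crosslinking. Arg-TCG stood at 1.22 and 0.614 RPM in the inputs, 12.6 and 27.6 in the pull-downs, and 0.601 and 3.93 without crosslinking.

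All 3 had both pull-downs above every other library, and without crosslinking Arg-TCT and Arg-TCG stood above all 3 inputs while Arg-CCG barely did. Arg-CCT stood at 1.15 and 0.733 RPM in the inputs, 12.1 and 24.9 in the pull-downs, and 0.671 and 2.65 without crosslinking. Arg-ACG, the wobble A isoacceptor, stood at 4.12 and 0.814 RPM in the inputs, 9.47 and 19.5 in the pull-downs, 1.91 in the non-crosslinked input and 0.456 in the non-crosslinked pull-down. Arg-ACG had the widest gap in RPM between the 2 crosslinked inputs (72 and 15 reads), though as a ratio that of Thr-CGT was wider (20.43 and 2 reads). The non-crosslinked pull-down of Arg-ACG (6 reads) was the lowest of the 6 libraries.

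The log2 ratio was 4.57 (SE 0.50, adjusted p = 0.00194) for Arg-TCG, 4.37 (SE 0.44, adjusted p = 0.00131) for Arg-CCT and 4.02 (SE 0.46, adjusted p = 0.00219) for Arg-TCT. It was 2.89 (SE 0.39, adjusted p = 0.00477) for Arg-CCG and 2.66 (SE 0.63, adjusted p = 0.0480) for Arg-ACG, the smallest of the 17. Without 1 crosslinked library the ratio ran from 3.88 to 5.13 for Arg-TCG, from 3.75 to 4.81 for Arg-CCT, from 3.34 to 4.48 for Arg-TCT and from 2.30 to 3.30 for Arg-CCG, lowest without pull-down 2 and highest without input 1 for Arg-TCG and without pull-down 1 for the others. The call of Arg-ACG lay at the threshold: it was lost without pull-down 2 (adjusted p = 0.0953), with TMM scaling (0.0503), with a minimum of 5 RPM (0.0684), with DESeq2 (0.114) and with the replicate block (0.117), and the ratio was 4.22 without input 1 and 1.92 without input 2.

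The copies of Arg-CCG were far apart in the inputs. tRNA-Arg-CCG-3-1 stood at 5.44 and 3.66 RPM in the inputs, 9.24 and 18.3 in the pull-downs, and 5.55 and 4.31 without crosslinking (log2 ratio 1.69, SE 0.37, adjusted p = 0.0370, the smallest of the members), a call lost with the replicate block (adjusted p = 0.0842) and with a minimum of 5 RPM (0.0544). tRNA-Arg-CCG-2-1 stood at 0.248 and 0.0543 RPM in the inputs, 8.39 and 15.3 in the pull-downs, and 0.212 and 0.883 without crosslinking (log2 ratio 6.42, SE 0.56, adjusted p = 0.000779, the largest of the members). This ratio rests on 4.33 and 1 input reads and was 7.65 without input 1 and 5.75 without input 2. In the pull-downs the 3 copies ran from 4.89 to 9.24 RPM and from 10.6 to 18.3, whereas in the inputs nearly all Arg-CCG reads, 95 of 102.67 in input 1 and 67.5 of 69.20 in input 2, were counted to tRNA-Arg-CCG-3-1.

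tRNA-Arg-CCG-1-1 (log2 ratio 6.12, SE 0.67, adjusted p = 0.00219) and tRNA-Arg-TCG-2-1 (6.11, SE 0.65, adjusted p = 0.00197) had the same input values, 0.191 and 0.0380 RPM, on equal fractional counts of 3.33 and 0.70 reads. Their pull-down levels of 4.89 and 10.6 RPM and of 4.96 and 10.4 RPM differed little, and ratios built on shared reads are not independent of each other. tRNA-Arg-TCT-4-1, known as a gene used mainly in the nervous system, was present here with 5.52 and 10.4 RPM in the pull-downs against 0.282 and 0.489 in the inputs (log2 ratio 4.41, SE 0.46, adjusted p = 0.00183). This gene was named after its values were seen. The most abundant Arg-TCT gene, tRNA-Arg-TCT-2-1, gave 6.95 and 14.8 RPM against 1.16 and 0.380 (log2 ratio 3.93, SE 0.55, adjusted p = 0.00623). Of Arg-CCT, tRNA-Arg-CCT-1-1 had the highest mean over both pull-downs, with 2.57 and 6.60 RPM in the pull-downs against 0.126 and 0.159 in the inputs (log2 ratio 5.05, SE 0.78, adjusted p = 0.00984, and 4.2 without pull-down 2 to 5.59 without pull-down 1).

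The 5 copies of Arg-ACG tested, of 6, had log2 ratios of 2.56 to 2.67. tRNA-Arg-ACG-1-1 stood at 0.746 and 0.155 RPM in the inputs, 1.76 and 3.28 in the pull-downs, and 0.334 and 0.104 without crosslinking (log2 ratio 2.56, SE 0.56, adjusted p = 0.0379), and its call was lost without pull-down 2 (adjusted p = 0.0701) and with the replicate block (0.0820). tRNA-Arg-ACG-1-2 had the same ratio, with equal values in all libraries other than input 2 (0.141 RPM). tRNA-Arg-ACG-3-1 stood at 0.890 and 0.182 RPM in the inputs and 1.93 and 4.52 in the pull-downs. Its log2 ratio of 2.67 (SE 0.66) had an adjusted p of 0.0572; it and tRNA-Arg-ACG-3-2, named because it was also not called (2.65, SE 0.65, adjusted p = 0.0567) were the members tested that were not called. tRNA-Arg-ACG-3-1 was called by DESeq2 (adjusted p = 0.000521), by limma (0.0424) and under 6 other alternatives, so both lie at the threshold.

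The proline tRNAs were high in all 3 pull-downs, crosslinked or not. Pro-AGG, the wobble A isoacceptor, stood at 1.54 and 1.19 RPM in the inputs, 21 and 25.9 in the pull-downs, 0.804 in the non-crosslinked input and 19.5 in the non-crosslinked pull-down. Pro-TGG stood at 1.53 and 1.43 RPM in the inputs, 17.2 and 21.7 in the pull-downs, and 1.43 and 15.3 without crosslinking. Pro-CGG stood at 0.711 and 0.580 RPM in the inputs, 9.70 and 12.1 in the pull-downs, and 0.454 and 7.98 without crosslinking.

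In all 3 isoacceptors every input lay below every pull-down. Their log2 ratios with crosslinking were 4.18 (SE 0.23), 3.80 (SE 0.21) and 4.16 (SE 0.23), each with an adjusted p of 0.000249. Pro also differed least between the pull-downs, with pull-down 2 at 1.25 times pull-down 1, where the other 4 amino acids ran from 2.08 to 2.3 times. Among the 31 isoacceptors of other amino acids the same ratio ran from 1.38 to 3.29 with a median of 2.31. Reads were divided among the Pro anticodons by the counting in all 6 libraries, so the 3 sums share some reads, in a proportion that the counts do not give, and are not independent of each other.

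Single Pro genes were nearly alike, with mean pull-down levels of 2.62 to 3.91 RPM over the 15 tested and log2 ratios of 3.45 to 4.24. The gene with the most reads of each isoacceptor was tRNA-Pro-TGG-2-4 (3.47 and 4.34 RPM in the pull-downs, 3.14 without crosslinking), tRNA-Pro-AGG-1-2 (3.40 and 4.12, 3.09 without) and tRNA-Pro-CGG-1-3 (3.25 and 4.11, 2.67 without). The non-crosslinked pull-down was 79.0% of the mean of the crosslinked pull-downs for Pro. It was 20.8% for Val, 16.7% for Arg, 10.9% for Ile and 4.66% for Thr.

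**Figure D3:**
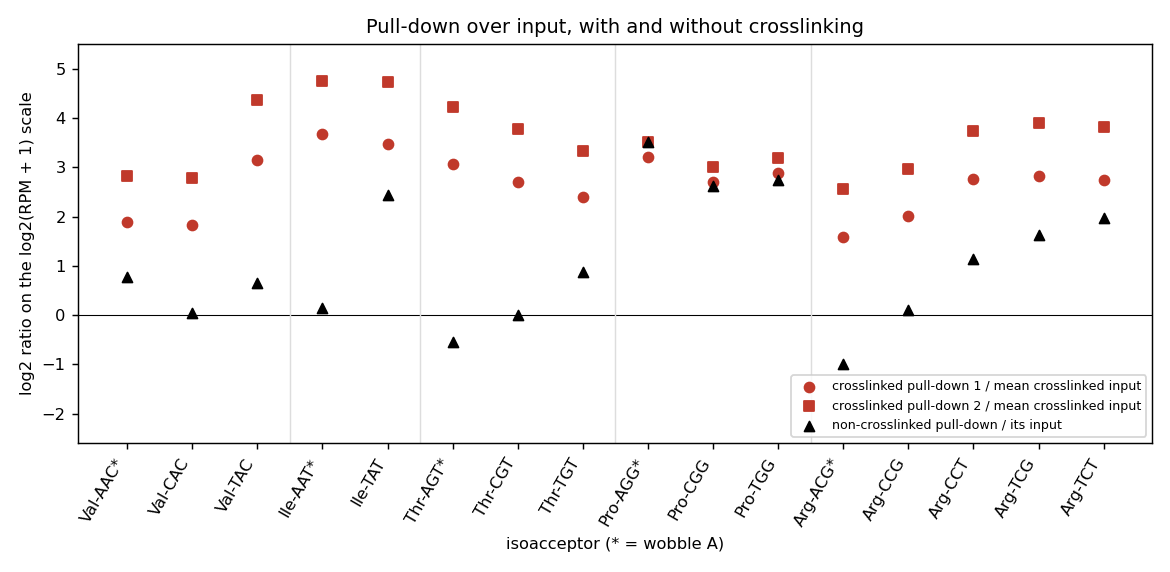
Ratio of pull-down to input on the log2(RPM + 1) scale for each isoacceptor sum, without error bars. Each crosslinked pull-down is set against the mean of the crosslinked inputs, and the non-crosslinked pull-down against its own input. With crosslinking the points of the 16 isoacceptors lie between 1.59 (Arg-ACG, pull-down 1) and 4.75 (Ile-AAT, pull-down 2). Without it the Pro isoacceptors keep a high ratio and Arg-ACG and Thr-AGT turn negative.

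Over single genes, 73 of the 153 members reached a mean of 1 RPM over the 4 crosslinked libraries, and 71 of these were called higher against 6.44% of the 39872 features tested. None was called lower (3.5% of all features), and all 73 had an unadjusted p under 0.05 (22.8% of all features); DESeq2 also called 0 lower and 73 higher. Of the 73, 72 had an input mean under 1 RPM and so passed the minimum only through the pull-downs, which largely fixed their direction; these counts describe them and support nothing further. The log2 ratio had a median of 4.14 in the members (1.69 to 6.42), 3.78 in the 187 other tRNA features tested and -0.21 in all features. Of the 187, 162 were called higher, so the rise itself was not tested as being particular to these amino acids.

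By amino acid, 12 of 12 Val, 13 of 13 Ile, 11 of 11 Thr, 15 of 15 Pro and 20 of 22 Arg features tested were called higher, against 6.44% of all features. The minimum largely fixed the direction of these counts too. Their median log2 ratios were 3.36, 4.89, 4.63, 4.07 and 3.87 in that order. In 10 of the 73 both inputs held at most 3 reads, and their ratios are the least certain. The other 80 members stayed under the minimum and were not tested.

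Without crosslinking, the log2 difference between pull-down and input (pseudocount 1 RPM, 1 library each, no test) reached 1 in 20 of the 73 genes, against 48 of the 187 other tRNA features and 5.26% of all features tested. These were all 15 Pro genes, 3 of Arg and 2 of Ile. Its median was 1.67 in Pro, 0.44 in Arg, 0.15 in Val, 0.09 in Ile and -0.04 in Thr.

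**Figure D4:**
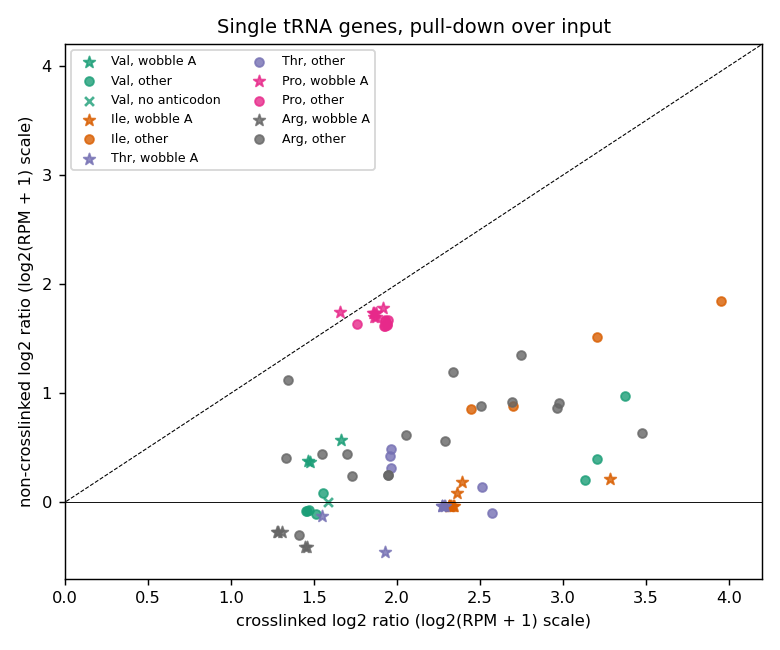
Each tested tRNA gene by its log2 difference between pull-down and input with crosslinking (horizontal, mean of 2 libraries per group) and without (vertical, 1 library per group), on the log2(RPM + 1) scale. The 15 Pro genes lie at 1.62 to 1.79 on the vertical axis, near the diagonal of equal change, while the Thr genes lie at -0.46 to 0.49.

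Wobble A isoacceptors were then set against the others of the same amino acid within each library, where differences in scaling cancel. The wobble A share of Ile reads was 50.8% in input 1, 51.1% in input 2, 54.0% in pull-down 1 and 51.0% in pull-down 2. It was 76.2% (Wilson 95% interval 61.5% to 86.5%) in the non-crosslinked input and 24.6% (18.2% to 32.4%) in the non-crosslinked pull-down. The Ile share was thus near 51% in the crosslinked libraries of both kinds and was split by the non-crosslinked pair, whose counting intervals lie apart.

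The wobble A share of Thr reads was 34.4% and 44.0% in the inputs, 44.7% and 46.6% in the pull-downs, and 50.9% (32.6% to 67.4%) and 15.6% (6.86% to 31.8%) without crosslinking. That of Arg was 27.8% and 11.0% in the inputs, 12.5% and 12.4% in the pull-downs, and 19.3% (13.6% to 26.6%) and 2.34% (1.08% to 5.02%) without crosslinking. In Ile, Thr and Arg the non-crosslinked pull-down therefore had the lowest share of the 6 libraries. Intervals cover counting error only, and whether reads from the same molecule were merged is not given in the sources used here.

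The wobble A share of Val was 15.5% and 12.0% in the inputs, 12.8% and 11.9% in the pull-downs, and 10.2% (6.33% to 15.8%) and 16.6% (12.2% to 22.3%) without crosslinking. That of Pro was 40.7% and 37.2% in the inputs, 43.8% and 43.4% in the pull-downs, and 29.9% (17.0% to 44.8%) and 45.5% (41.4% to 49.6%) without crosslinking. For these amino acids the non-crosslinked pull-down had the highest share of the 6, but its counting interval overlaps that of the non-crosslinked input. Over all 5 together the share was 29.5% and 23.6% in the inputs, 31.7% and 30.4% in the pull-downs, and 24.8% and 28.0% without crosslinking.

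The shares gave no called difference between crosslinked pull-downs and inputs: the exact two-sided permutation test gave p = 0.33 for Thr, Pro and all 5, p = 0.667 for Val and Ile and p = 1.0 for Arg. With 2 against 2 libraries it cannot go below 0.33, and adjusted over the 6 tests the values were 0.667, 0.8 and 1.0. The difference in means (pull-down minus input) was 4.53 percentage points over all 5, from -6.92 for Arg to 6.42 for Thr. These values rest on single inputs: without input 1 the difference was 1.45 for Arg and 1.65 for Thr, and without input 2 it was -15.3 for Arg, 11.2 for Thr and 1.58 over all 5.

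The limma test on log2 levels within the amino acid gave 0.11 (SE 0.17, adjusted p = 0.630) for Ile-AAT, 0.12 (SE 0.21, adjusted p = 0.661) for Thr-AGT and 0.05 (SE 0.16, adjusted p = 0.832) for Pro-AGG. It gave -0.98 (SE 0.18, adjusted p = 0.00955) for Val-AAC and -1.09 (SE 0.31, adjusted p = 0.0305) for Arg-ACG, both called lower. That is 2 of 5 wobble A isoacceptors, beside 6 of the 12 others of these amino acids (Val-CAC, Arg-CCG, Thr-TGT, Pro-CGG, Pro-TGG and Ile-GAT) and 45.9% of the family of 37, and a share near the family's is no result about wobble A. The values moved with the pseudocount on the same counts: Pro-CGG, called lower, rose from 18.4% to 20.2% of the Pro level and gave 0.02 at 0.1 RPM. Ile-GAT had no input read to fall from, and gave -3.57 at 0.1, -4.27 at 1 and -3.50 at 5 RPM. Among the 12 others, 3 were called lower and 3 higher at 0.1 RPM, and 9 lower and 1 higher at 5 RPM. With the replicate number as a block in limma, Pro-CGG (-0.66, adjusted p = 0.0977) and Pro-TGG (-0.52, adjusted p = 0.212) were not called. The other isoacceptors called lower, with Val-AAC and Arg-ACG, kept their calls there. Arg-TCG went from 1.05 (adjusted p = 0.0170) at 0.1 RPM to -0.67 (adjusted p = 0.0453) at 5 RPM and Arg-CCT from 0.86 (adjusted p = 0.0448) to -0.78 (adjusted p = 0.0433), called in opposite directions. The wobble A calls depended on the pseudocount, with -0.32 (adjusted p = 0.184) and -0.69 (adjusted p = 0.348) at 0.1 RPM. They were also lost without either pull-down, at values near the full ones. Without pull-down 1 and without pull-down 2 these were -1.09 and -0.87 for Val-AAC and -1.13 and -1.05 for Arg-ACG. The others called lower, except Ile-GAT, lost their calls in the same way.

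**Figure D5:**
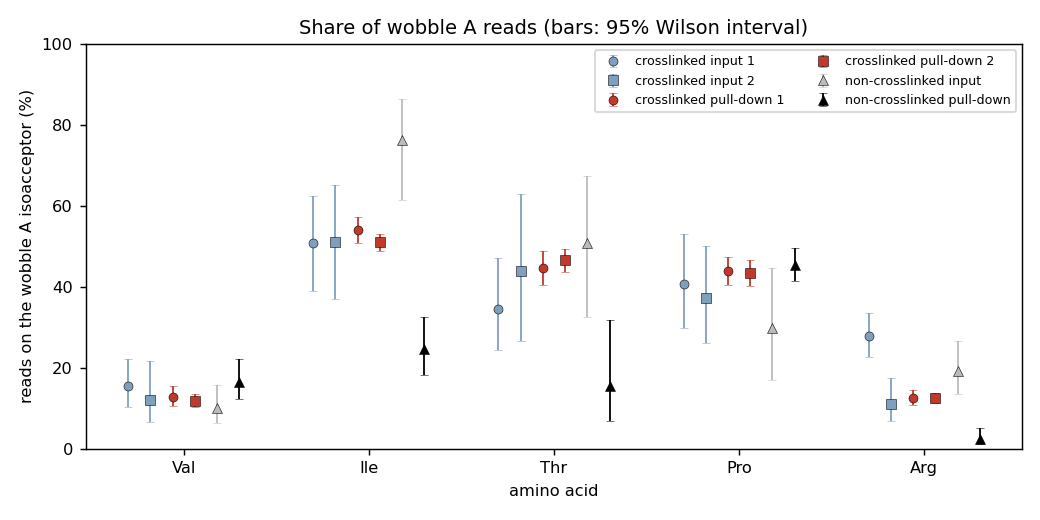
Share of wobble A reads among the reads of each amino acid, in percent, in each of the 6 libraries, with Wilson 95% counting intervals. For Arg, input 1 (27.8%) stands above the other crosslinked libraries (11.0% to 12.5%), and the non-crosslinked pull-down drops to 24.6% in Ile, 15.6% in Thr and 2.34% in Arg.

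Whether the gain in the pull-down depended on crosslinking was tested as an interaction over all 6 libraries, the lone non-crosslinked libraries being assumed to vary like the crosslinked ones. On the isoacceptor sums, edgeR called 0 of 17 (0.0% of all features) and limma 0 of 17. At an unadjusted p under 0.05 there were 7 of 17 with edgeR, against 13.7% of all features, and 13 of 17 with limma, against 15.1%. The call count rested on the inputs: 7 of 17 were called higher without input 1 (0.222% of all features) and 2 without input 2 (0.0504%).

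The difference between the log2 ratios with and without crosslinking was 6.10 (SE 1.39, adjusted p = 0.329) for Thr-AGT and 4.79 (SE 0.85, adjusted p = 0.329) for Ile-AAT in edgeR. It was 4.61 (SE 1.61, adjusted p = 0.339) for Arg-ACG, 2.14 (SE 1.08, adjusted p = 0.414) for Val-AAC and -0.55 (SE 0.47, adjusted p = 0.587) for Pro-AGG. Isoacceptors with another wobble base gave 4.68 (SE 1.86) for Thr-CGT, 3.63 (SE 0.94) for Val-TAC, 2.68 (SE 0.68) for Arg-CCG and 2.67 (SE 0.72) for Val-CAC. The rest ran through 2.37 (SE 1.06) for Arg-CCT, 1.68 (SE 1.22) for Arg-TCG, 1.63 (SE 1.55) for Thr-TGT, 1.30 (SE 1.14) for Ile-TAT and 0.98 (SE 1.01) for Arg-TCT to 0.27 (SE 0.42) for Pro-TGG and -0.15 (SE 0.54) for Pro-CGG. The wobble A value was above the other anticodons of its amino acid for Thr, Ile and Arg, and below them for Val and Pro. Whether these edgeR values differ from each other was not tested. The median over all features was 0.56. On single genes, 0 of 73 were called and 10 had an unadjusted p under 0.05, against 13.6% of all features.

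A limma interaction within the amino acid was added after the split of the non-crosslinked shares had been seen, so it restates that split and is no independent evidence of it. With the lone libraries again assumed to vary like the others, it gave 2.36 (SE 0.29, adjusted p = 0.00659) for Ile-AAT and -2.46 (SE 0.30, adjusted p = 0.00659) for Ile-TAT. It also called Thr-TGT (-2.36, SE 0.43, adjusted p = 0.0220) and Val-AAC (-1.38, SE 0.32, adjusted p = 0.0376), and missed Thr-AGT (1.29, SE 0.37, adjusted p = 0.0575) and Arg-ACG (1.06, SE 0.54, adjusted p = 0.20). Over the family of 37 isoacceptors 21.6% were called. The adjusted p of Ile-AAT was 0.00523 with a pseudocount of 0.1 RPM (18.9% of 37 called) and 0.0615 with 5 RPM (0.0% called), so the call depended on the pseudocount. With 0.1 RPM the test also called Thr-AGT (2.55, adjusted p = 0.0350) and Arg-TCT (-1.68, adjusted p = 0.0350), no longer called Val-AAC (-1.06, adjusted p = 0.0988) and gave 2.40 (adjusted p = 0.185) for Arg-ACG.

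As a share of all tRNA reads, the 5 amino acids together held 3.31% and 1.79% in the inputs, 7.86% and 5.90% in the pull-downs, and 2.53% and 9.99% without crosslinking. Both pull-downs lay above both inputs, with means of 6.88% ± 1.39 (SD, n = 2) and 2.55% ± 1.08 (SD, n = 2). The exact permutation test gave p = 0.33, the smallest that 2 against 2 allows. Of the 9.99% in the non-crosslinked pull-down, Pro alone held 4.68%, against 1.43% and 0.666% in the crosslinked pull-downs.

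In the authors' deposited table of enrichment ratios, 81 of the members were listed, all above 1 as were all 241 other tRNA features and 161247 of all 216085, with a median of 28.1 (5.35 to 345). The authors' deposited table gave medians of 76.6 for Ile, 30.1 for Arg, 28.1 for Thr, 27.6 for Val and 16.9 for Pro, against 16.5 for its other tRNA features and 1.37 for all features. The highest member in the authors' deposited table was tRNA-Arg-CCG-2-1.

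Messenger RNAs of the tRNA pathway were not called higher. From a list of 57 symbols (synthetases that charge these tRNAs, wobble deaminases, splicing and end-processing factors, the export receptor, polymerase III and its factors, and other modifying enzymes), 22 pre-mRNA features were tested, with 0 called higher and 1 called lower. That feature was Polr3a, the largest subunit of RNA polymerase III, at a log2 ratio of -1.19. Of all pre-mRNA features, 0.469% were called higher and 11.48% lower. Of 28 exon features of 16 listed genes tested, 0 were called in either direction, against 4.677% higher and 4.393% lower of all exon features, and both Adat1 exons tested, of a deaminase that acts next to the anticodon of alanine tRNA, had a median log2 ratio of -0.14. The features of Adat2 and Adat3 were under the minimum for the test.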

How the data were processed

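The 6 eCLIP libraries of P19 cells were used, and the deposited columns give, per annotated feature, an expected count (reads divided among the features they match) and its RPM, both made by the authors. The authors' deposited enrichment table gives a ratio per feature. Per the submitters' processing notes, bcl2fastq 2.19, STAR 2.5.2b, bedtools 2.29.0 and build mm10 were used. The annotation, the strand and the handling of duplicate reads are not given in the sources used here. Expected counts were rounded and tested with edgeR 4.0.16 (R 4.3.3), with annotated reads as the library size, features at a mean of 1 RPM or more over the 4 crosslinked libraries, and Benjamini-Hochberg adjustment over all of them. The same fit was run with tRNA features summed per isoacceptor and per amino acid. limma 3.58.1 tested isoacceptors within amino acids. DESeq2 1.42.0, other filters and scalings, the replicate block and leaving out libraries were alternatives. The scripts were tested on simulated counts. The genes named are every isoacceptor and amino acid sum, the gene with the highest mean in each isoacceptor and the 3 members with the largest and the smallest edgeR ratio; other genes named are marked as chosen after their values were seen. The members and the lists were chosen with earlier results of these data known. No tRNA sequence is printed.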

Additional observations from a re-analysis of the deposited data

Results flagged for a closer look

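The summed Arg-ACG tRNAs had a log2 difference between pull-down and input of -0.998 without crosslinking (1.91 RPM in the input, 0.456 in the pull-down), while both crosslinked pull-downs lay above both inputs. Thr-AGT did the same, at -0.54 (1.01 and 0.380 RPM). The difference between conditions was not called for either sum by edgeR, with an adjusted p of 0.339 for Arg-ACG and 0.329 for Thr-AGT, and the non-crosslinked values rest on 1 library each.

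Within their amino acid, the change between pull-down and input differed between crosslinked and non-crosslinked libraries by 2.36 for Ile-AAT, -2.46 for Ile-TAT, -2.36 for Thr-TGT and -1.38 for Val-AAC (limma, log2 scale, pseudocount 1 RPM). This test was added after the split of the non-crosslinked shares had been seen, so it restates that split and is no independent evidence of it. It assumes that the lone non-crosslinked libraries vary like the others. Of the 37 isoacceptors of all amino acids 21.6% were called, a share that the 4 of 17 here do not stand out from. With a pseudocount of 5 RPM 0 of 37 were called, and with 0.1 Val-AAC was not called (adjusted p = 0.0988). Ile-AAT and Ile-TAT make up nearly all of the Ile reads, so their values are close to mirror images and count as 1 observation.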

How the results depend on the processing

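The named genes and sums kept their direction between pull-down and input under every alternative run. Calls changed as follows. With no filter on low values edgeR called 0 of 132 member genes, 0 of 22 isoacceptor sums and 0 of 5 amino acid sums, with 98, 21 and 5 at an unadjusted p under 0.05, over 942743 features in place of 39872; with a minimum of 5 RPM it called 8 member genes of the 9 tested. Without 1 crosslinked library in turn the counts called were 68 to 73 genes, 16 to 17 sums and 5 amino acids, and for the dependence on crosslinking 0 to 7 sums (7 without input 1, 2 without input 2). Within amino acids, a pseudocount of 0.1 gave -0.32 for Val-AAC and -0.69 for Arg-ACG, which were no longer called. A pseudocount of 5 turned Thr-AGT to -0.0652 and Pro-AGG to -0.15. Of the other isoacceptors, Arg-TCG (1.05 at 0.1, -0.67 at 5) and Arg-CCT (0.86 and -0.78) were called in opposite directions, on the same counts with only the pseudocount changed. Leaving out libraries gave -1.09 to -0.87 for Val-AAC, -1.52 to -0.66 for Arg-ACG, -0.10 to 0.34 for Thr-AGT, -0.00747 to 0.10 for Pro-AGG and 0.02 to 0.19 for Ile-AAT. The dependence on crosslinking within amino acids, never called for these, turned to -0.30 for Arg-ACG and -0.0496 for Arg-CCG with a pseudocount of 5 and to 0.90 for Thr-CGT with 0.1. The log2 ratio of the shares of tRNA reads was 1.43 (1.06 to 1.95 without 1 library). With the replicate number as a block, 67 genes, 16 sums (Arg-ACG lost, adjusted p = 0.117) and 5 amino acids were called; the labels do not say that a number marks a shared batch, and deviations of same-numbered libraries correlated at 0.11 over all features and -0.31 over the members, so this pairing was not used. Reads of the members were few in the inputs, although these were not shallow: the 153 members had 345 reads in input 2, the deepest library.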
